A study of Mus musculus with 2 samples.

Results

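The lipins and the acyltransferases that assemble triglyceride were followed in liver RNA of apolipoprotein E-deficient mice. They were chosen by symbol, as the 3 lipin genes Lpin1, Lpin2 and Lpin3, the acyltransferases Gpam, Agpat1, Agpat2 and Agpat3, the diacylglycerol acyltransferases Dgat1 and Dgat2, and Mogat1. Of these 10 genes, 9 had at least 1 probe set annotated to a single symbol, out of 12393 genes with such a probe set, and Agpat2 is not analysed here. The 9 genes had 15 probe sets. Each gene was represented by its brightest probe set, the one with the highest mean log2 signal over both arrays, and all others are given beside it.

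Both groups were males of a C57BL/6J/ OLA129 background, labelled as 2 months old, deficient in apolipoprotein E and kept on chow. Control mice drank 1% glycerol in water, and the other mice drank the same glycerol solution with squalene, a precursor of cholesterol, at 1 g per kg per day. The growth protocol text describes squalene for both samples, so the groups follow the sample titles, with which the feeding labels of each sample match. Both drinks were given for 10 weeks, so glycerol, the backbone of triglyceride, was supplied to both groups. As 10 weeks are longer than 2 months, the labelled age cannot be that at which livers were taken. Each group was 1 pool of liver RNA on 1 Affymetrix array, and the labels state neither how many mice went into a pool nor the hour and feeding state at which livers were taken. No replicate spread exists, no test between the pools was possible, and every ratio compares these 2 arrays.

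In the glycerol phosphate pathway, Gpam and related enzymes place a first fatty acid on glycerol phosphate, and the AGPAT enzymes add another to give phosphatidate. Lipins remove the phosphate to leave diacylglycerol, and the DGAT enzymes add the last fatty acid. Lipin 1 also enters the nucleus, where it acts as a coactivator with PGC-1alpha and PPAR alpha. In liver its transcript is known to respond to fasting and glucocorticoids.

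The upstream sequence of 3 of the genes is shown because Lpin1 is the gene the results turn on, Lpin2 is its paralog in liver, and Gpam opens the pathway. Each is the 250 bases before the most upstream start that RefSeq gives for the gene on GRCm38.p6, read 5′ to 3′ on the gene's strand. Lpin1 lies at chr12:16610967-16611216 on the minus strand, Lpin2 at chr17:71183282-71183531 on the plus strand and Gpam at chr19:55127239-55127488 on the minus strand. Capitals mark every match, on either strand, to the E-box, spelled CACGTG, the GC box, spelled GGGCGG, the CCAAT box, the nuclear receptor core motif, spelled AGGTCA, or a part of the cAMP response element, spelled TGACG.
Lpin1: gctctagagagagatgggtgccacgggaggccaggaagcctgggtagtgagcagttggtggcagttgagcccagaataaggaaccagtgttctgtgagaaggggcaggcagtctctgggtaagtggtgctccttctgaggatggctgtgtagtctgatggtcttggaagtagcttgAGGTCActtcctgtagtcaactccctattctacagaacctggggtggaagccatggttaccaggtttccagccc
Lpin2: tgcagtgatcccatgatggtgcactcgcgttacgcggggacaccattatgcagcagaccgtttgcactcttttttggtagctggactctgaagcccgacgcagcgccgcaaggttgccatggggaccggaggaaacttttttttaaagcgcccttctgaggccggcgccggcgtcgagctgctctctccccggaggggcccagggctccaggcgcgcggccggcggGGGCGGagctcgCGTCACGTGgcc
Gpam: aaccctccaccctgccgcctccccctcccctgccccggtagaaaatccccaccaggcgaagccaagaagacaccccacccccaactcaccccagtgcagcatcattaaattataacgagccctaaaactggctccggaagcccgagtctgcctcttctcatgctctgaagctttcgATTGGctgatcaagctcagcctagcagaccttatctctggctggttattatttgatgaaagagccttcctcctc

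The Lpin1 window held 1 receptor core motif, beginning 74 bases before the start, and none of the other motifs. The Lpin2 window held 1 GC box, 1 E-box and 1 response element match on the opposite strand. The last 2 overlap and begin 9 and 12 bases before the start. The Gpam window held 1 CCAAT box on the opposite strand, beginning 74 bases before the start. Lpin2 and Gpam also have starts farther downstream, whose windows are not shown. The downstream Gpam window held 1 receptor core motif, beginning 196 bases before its start, 1 GC box and 2 partial response elements. Among 32851 RefSeq windows of this length, 14.02% held the receptor core motif, 6.02% the E-box, 32.74% the GC box, 33.85% the CCAAT box and 17.77% the partial response element. The Lpin1 window contained 1 CpG, the Lpin2 window 26 and the Gpam window 7, against a median of 6 over all windows. Their G and C contents were 54.8%, 65.2% and 54.8%, with a median of 52.4% over all windows. The downstream Lpin2 windows differed from each other, with 50 and 3 CpG at 83.2% and 44.8% G and C. The former held 1 GC box and the latter 3 CCAAT boxes on the opposite strand. A match is a run of letters, and no binding was measured.

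Lpin1, the phosphatidate phosphatase with the coactivator role, was the gene of the set that stood apart. Its brightest probe set read 780.5 in the control pool and 2088.0 in the squalene pool, a 2.68-fold difference (log2 ratio 1.42). Its other probe set read 422.7 and 1675.4, a 3.96-fold difference (log2 ratio 1.99). Both probe sets were far above the array medians of 40.0 and 41.5 in both pools, and both were higher in the squalene pool. Only the latter passes the log2 limit of 1.5 that the submitters used as their screen, and the brightest probe set does not. Counted by the brightest probe set, 0.124% of genes that reached the array median in both pools passed it, and Lpin1 is not among them.

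The only spread available was the one between a gene's own probe sets. Over 1411 genes with several probe sets in the brightest tertile of signal it was an SD of 0.24 in log2 ratio, in the middle tertile 0.71 (1169 genes) and in the dimmest 1.91 (1144 genes). Both Lpin1 ratios exceed the SD of the brightest tertile, in which both probe sets lie, though they lay 0.57 apart from each other. This SD covers measurement by different probes. It does not cover differences between mice, nor any array difference that a gene's probe sets share. Among 6452 genes whose brightest probe set reached the array median in both pools, called well read here, 7 had a higher ratio than Lpin1 (0.108%). In a count chosen after the values were seen, 2141 genes had at least 2 well read probe sets, and in 8 of them (0.374%), Lpin1 included, all such probe sets lay above a log2 ratio of 1.0.

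**Figure D1:**
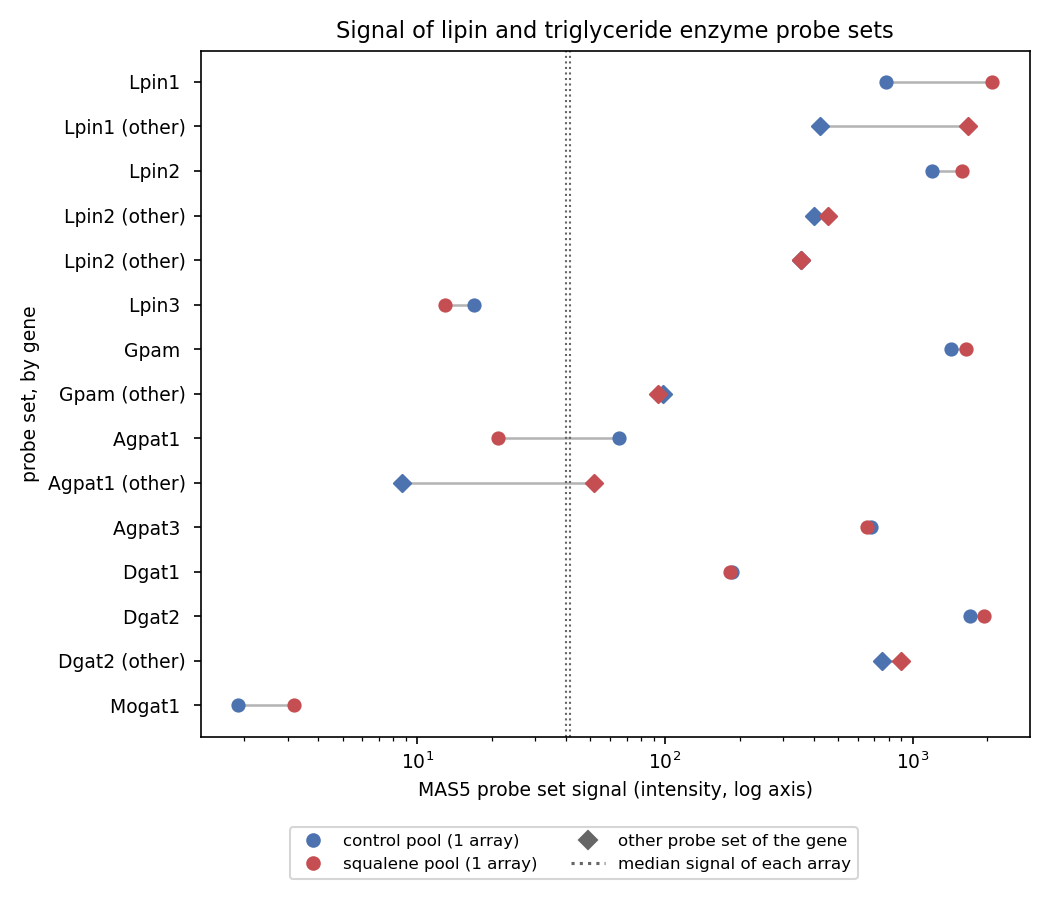
MAS5 signal (log axis) of each of the 15 probe sets in the control pool (blue) and the squalene pool (red), 1 array each. Circles are the brightest probe set of a gene and diamonds its others. Dotted lines are the array medians, 40.0 and 41.5. The 2 Lpin1 probe sets show the widest gaps among the bright probe sets, while the 2 of Agpat1 point in opposite directions around the medians.

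The other lipins did not share the size of the Lpin1 difference. Lpin2, the other lipin that was well read in these livers, read 1194.0 and 1581.0 on its brightest probe set, a 1.32-fold difference (log2 ratio 0.41). Its other probe sets read 398.1 and 455.5 (0.19), and 352.4 and 355.1 (0.01). The 3 ratios all lie above 0, and the first exceeds the SD of 0.24 while the others do not. Of the well read genes, 11.8% had a higher ratio than the brightest Lpin2 probe set. Lpin3 read 17.0 and 12.9 (log2 ratio -0.40), below the array median in both pools, where the SD between probe sets was 1.91, so a difference was not detectable at this signal.

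The enzymes that open the pathway differed little as reported, where they could be read. Gpam, the mitochondrial glycerol phosphate acyltransferase, read 1430.1 and 1638.1 (log2 ratio 0.20) on one probe set and 98.3 and 93.6 (-0.07) on the other. Agpat3, an acyltransferase for lysophosphatidate, read 680.6 and 654.0 on its single probe set (-0.06). Neither ratio exceeds the SD between probe sets. The signs near 0 depend on scaling, since centring on the array's spike-in controls turned the Agpat3 ratio to 0.20. The same centring raised the ratio of the brighter Gpam probe set to 0.45.

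Agpat1, an endoplasmic reticulum enzyme of the same step, gave no usable direction. Its brighter probe set read 65.2 and 21.2, a log2 ratio of -1.62, and the other read 8.7 and 51.9, a log2 ratio of 2.58. On each, 1 of the 2 signals lay below the array median, and the probe sets disagree in sign by 4.20 on the log2 scale. After raising low signals to the array median, the brighter one gave -0.65, and the mean of both probe sets gave 0.48.

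The enzymes that finish triglyceride were near equal in the pools as reported, where they could be read. Dgat2, the main diacylglycerol acyltransferase for newly made fatty acids in liver, read 1701.4 and 1940.9 on its brightest probe set (log2 ratio 0.19) and 750.6 and 899.3 on the other (0.26). Both lie slightly above 0, the first within the SD of 0.24 and the second just past it. Centred on the spike-ins, the first became 0.45. Dgat1, which also esterifies diacylglycerol at the endoplasmic reticulum, read 185.7 and 182.3 (-0.03). That ratio came from 1 probe set whose suffix marks probes that can match more than 1 transcript, and centring on the spike-ins turned it to 0.23. Mogat1, which acylates monoacylglycerol, read 1.9 and 3.2, near the lowest signals of both arrays. Its log2 ratio of 0.75 became 0.05 with signals floored at the median and carries no direction.

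**Figure D2:**
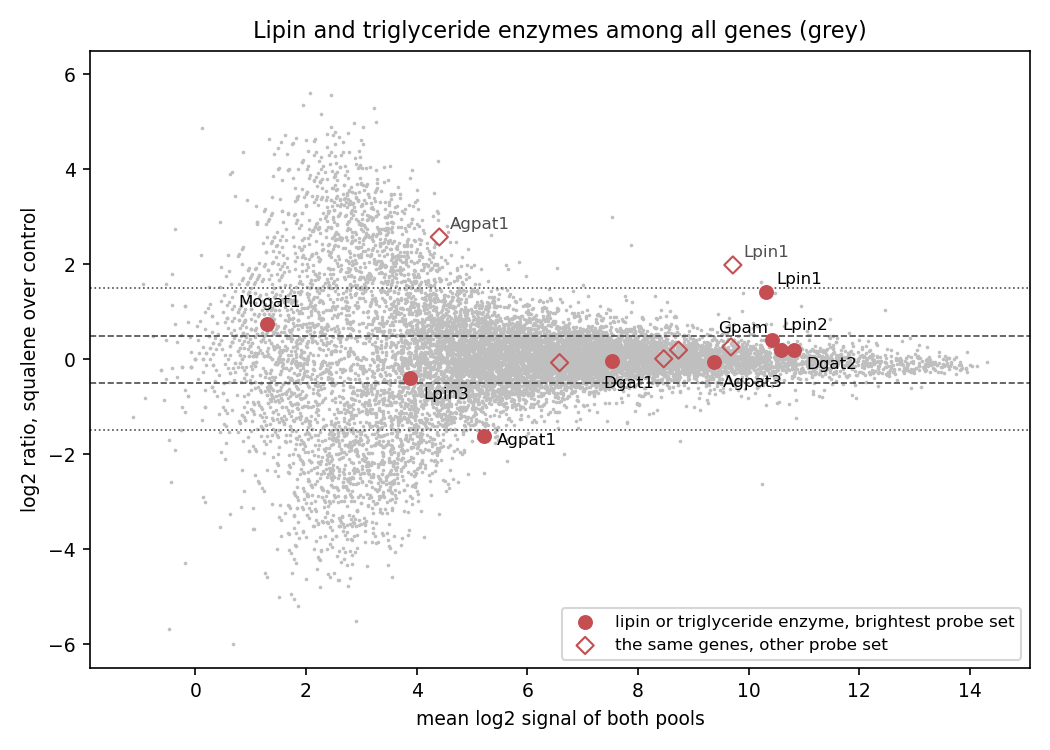
Log2 ratio of squalene over control against mean log2 signal, with 12393 genes in grey (1 probe set each), the brightest probe sets of the lipin and triglyceride enzyme genes as filled circles and their other probe sets as open diamonds. Dashed lines mark ratios of 0.5 and -0.5 and dotted lines 1.5 and -1.5. The grey cloud widens at low signal, where Mogat1, Lpin3 and Agpat1 lie, and Lpin1 lies above the cloud at high signal.

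By a band of 0.5 on the log2 scale, 2 of the 9 genes were higher in the squalene pool (Lpin1 and Mogat1), 1 was lower (Agpat1) and 6 lay between. Over all 12393 genes, 21.5% were higher and 19.8% lower by the same rule, so these counts are near the background. The median of the 9 genes was 0.19, and that of all genes was 0.01. The 1 gene past a ratio of 1.5 was Agpat1, a limit passed by 15.2% of all genes. Of the 9, 7 reached the array median in at least 1 pool and 6 were well read. Apart from Lpin1, the 5 other well read genes ran from -0.06 to 0.41, and their 9 well read probe sets from -0.07 to 0.41. Among all well read genes, 7.84% were higher and 6.34% lower by the band.

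Other enzymes of the same steps, and the genes that supply glycerol phosphate, lay within the band where they were measured. Over all 7322 genes that reached the array median in at least 1 pool, called measured, 11.2% were higher and 10.4% lower by the band, and the lists that follow are counted over such genes. Of 7 listed acyltransferases outside the set, 4 had a probe set and 2 were measured. They were Lclat1, a lysophospholipid acyltransferase (243.6 against 314.3, log2 ratio 0.37), and Gpat4, the glycerol phosphate acyltransferase of the endoplasmic reticulum (357.0 against 405.8, 0.18). Both lay within the band, and centred on the spike-ins 1 of the 2 was higher, with a median of 0.53. Of the genes that supply glycerol phosphate, 4 were measured and all 4 lay within the band. Gpd1, which makes glycerol phosphate from a glycolytic intermediate, was the farthest from 0, at 711.7 and 528.5 (-0.43). Its next brightest probe set read 331.9 and 263.2 (-0.33). Gpd2, its mitochondrial counterpart, read 542.2 and 565.3 (0.06), the glycerol channel gene Aqp9 2512.6 and 2594.7 (0.05), and Tpi1, a glycolytic isomerase, 2849.8 and 2913.3 (0.03).

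Most genes of the branches from phosphatidate and diacylglycerol to phospholipids also lay within the band. Their median was 0.09 over 19 measured genes, of which 1 was higher and 1 lower by the band. The 1 higher was Pgs1, which makes phosphatidylglycerol phosphate, at 21.2 and 55.8 (1.40), but its other probe sets read -0.07 and -1.88. The 1 lower was Dgka, a kinase that turns diacylglycerol back to phosphatidate, at 75.1 and 44.5 (-0.76). Pcyt1a, the rate-limiting enzyme of phosphatidylcholine synthesis, read 176.7 and 239.9 (0.44) on its brightest probe set, and from 0.01 to 0.68 on its others. Plpp1, a phosphatidate phosphatase of another family, read 142.4 and 190.9 (0.42) on its brightest probe set, and -0.62 and -1.10 on its others. Centred on the spike-ins, this list had 5 higher and 0 lower.

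Among partners and regulators of lipins, Ppargc1a, which encodes the coactivator PGC-1alpha, differed most. It read 74.8 and 221.3 on its brightest probe set (log2 ratio 1.56), and all 5 of its probe sets lay above 0, the others from 0.23 to 1.32. Srebf1, which encodes a driver of lipogenic genes, was lower, at 462.4 and 307.9 (-0.59). Crtc2, a CREB coactivator, read 29.9 and 57.1 (0.93), with the control signal below the array median. Mtor, a kinase that phosphorylates lipin 1, read 134.1 and 181.4 (0.44), but its dimmer probe set gave -0.39. The list's median was 0.28, and 2 of its 14 measured genes were higher and 1 lower by the band. Centred on the spike-ins, the same list had 7 higher and 0 lower.

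Ctdnep1 and Cnep1r1, which together form the phosphatase that activates lipins, read 0.20 and -0.02. Ppara, the nuclear receptor that lipin 1 coactivates, read 734.5 and 944.3 (0.36), and the glucocorticoid receptor gene Nr3c1 read 272.3 and 274.6 (0.01). These last 4 genes were chosen from the list after their values were seen. None of them lay outside the band as reported, but Ppara was higher by the band when centred on the spike-ins.

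Most genes of triglyceride storage, export and lipolysis lay within the band. The median was -0.06 over 17 measured genes, of which 4 were lower by the band and 0 higher. G0s2, whose protein restrains the lipase ATGL, read 3012.2 and 486.7 (-2.63) on its single probe set. Ces1f, a carboxylesterase, read 2010.5 and 1058.4 (-0.93). Its single probe set has the suffix for probes that can match more than 1 transcript. The droplet coat gene Plin2 read 3233.0 and 1880.5 (-0.78). Bscl2, which encodes seipin, read 854.7 and 601.9 (-0.51), and its other probe set -1.07. Centred on the spike-ins, 3 genes were higher and 3 lower and the median was 0.20.

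**Figure D3:**
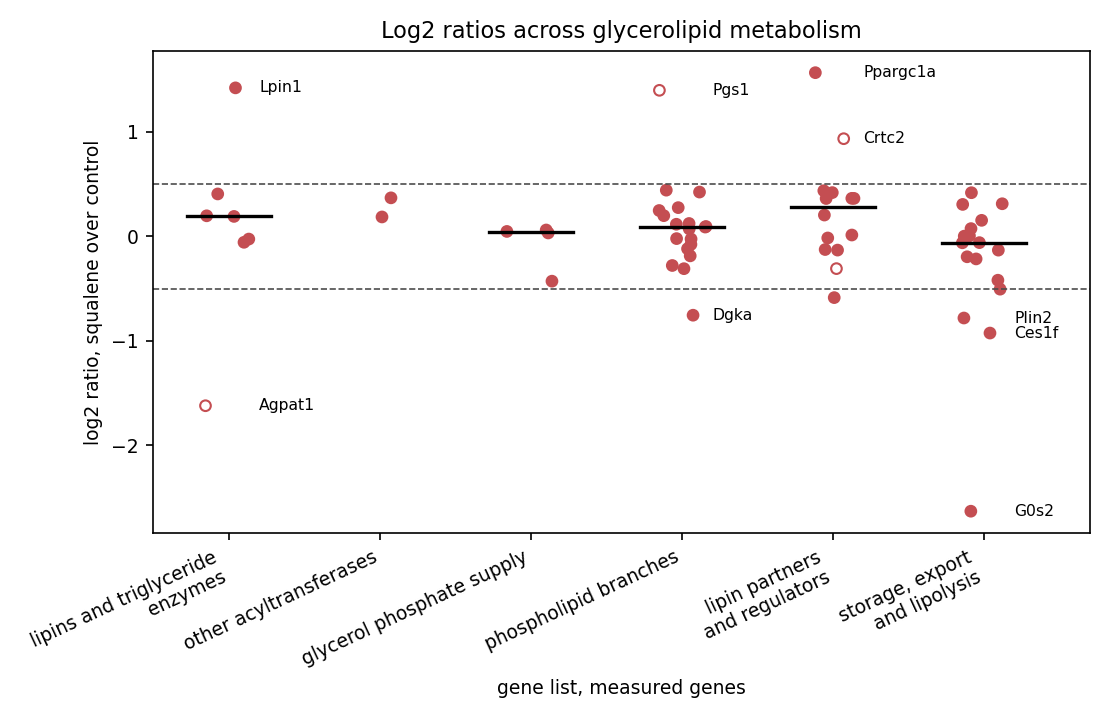
Log2 ratio of squalene over control for each measured gene in the lipin and triglyceride enzyme set and in 5 lists of other glycerolipid genes. Filled points were at or above the array median in both pools and open points in only 1, black bars are medians (drawn for lists of more than 3 genes), and dashed lines mark 0.5 and -0.5. Most points lie between the dashed lines. Lpin1 and Ppargc1a lie above them, as do the open points of Pgs1 and Crtc2. Of the points below, G0s2 and the open point of Agpat1 lie farthest from 0.

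The genes most like Lpin1 were sought among 974 well read genes whose mean log2 signal was within 1 of its own, by the closest log2 ratio. With 2 arrays, likeness is closeness of 1 ratio. Dbp, a clock-controlled transcription factor gene, read 589.2 and 1546.7 (1.39), and 1.11 on its other probe set. Cyp7a1, the first enzyme of the classic bile acid pathway, read 885.7 and 2320.5 (1.39), and 1.38 on its other probe set. Thrsp, a lipogenic nuclear protein gene, read 676.9 and 2094.9 (1.63), and 1.68 on its other probe set.

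The label of liver was checked on hepatocyte markers. All 9 with a probe set were well read and none lay outside the band, with a median of -0.06. Centred on the spike-ins the median was 0.19, and 1 marker was higher by the band, as 1 was after quantile normalization. Skeletal muscle and adipose tissue also express Lpin1. None of 6 muscle markers reached the array median in either pool, and their signals summed to 51.9 and 30.6. Of 6 adipocyte markers with a probe set, 2 did so, and the sum was 251.0 and 235.4. On their brightest probe sets these 2, Pparg (-0.68) and Fabp4 (-0.17), lay below 0. The defining marker Adipoq read 1.0 and 16.7, both below the array medians, where a ratio gives no usable direction. Kupffer cell and macrophage markers were lower in the squalene pool, 6 of 9 by the band, with sums of 5505.4 and 3575.1 and a median of -0.69 (3 of 9 and -0.44 centred on the spike-ins). In bulk RNA, fewer cells of a type and less RNA per cell cannot be told apart, and the part of these markers in the Lpin1 ratio was not tested. The 18 spike-in probe sets had a median log2 ratio of -0.26, all of them below 0, so scaling to them adds 0.26 to every ratio.

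**Figure D4:**
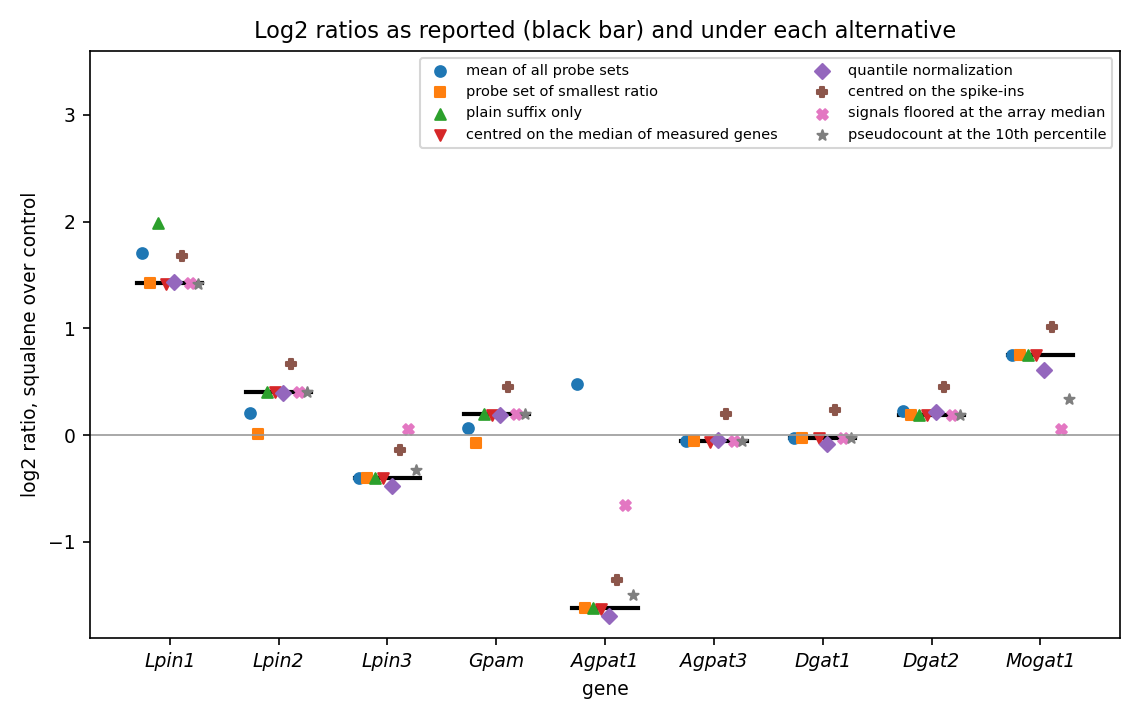
Log2 ratio of squalene over control for each of the 9 genes as reported (black bars) and under 8 other choices of probe set, scaling or treatment of low signals (coloured symbols). Lpin1 stays between 1.41 and 1.99, while Agpat1 ranges from -1.69 to 0.48.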

How the data were processed

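Liver RNA of 1 control pool and 1 squalene pool was measured on 2 Affymetrix arrays. The deposited values are linear probe set intensity, which the authors computed with MAS5, per the submitters' processing notes. No label names the software version or the scaling target. Both arrays had a 2% trimmed mean near 200 (200.1 each). Of 22690 probe sets, 64 were array controls, 20380 had 1 gene symbol in the platform annotation, 691 several and 1555 none.

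Log2 ratios of squalene over control were taken without a pseudocount. A gene was called measured when its brightest probe set reached the array median in at least 1 pool, and well read when it did so in both. With 1 array per group no p-values were computed, and the number of arrays limits the precision. From each list, up to 4 measured genes with the largest ratios were named. The genes and lists were chosen with earlier results of these data known. Upstream windows came from a table of RefSeq promoters (GRCm38.p6), in which 8 of the 10 genes were matched. Python 3.11.15, numpy 2.4.6, pandas 2.3.3 and matplotlib 3.10.9 were used, and the counts and spread were checked on simulated data.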

Additional observations from a re-analysis of the deposited data

How the results depend on the processing

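Lpin1 kept its direction and lay above 0.5 under all 8 alternatives of probe set, scaling and low signals, from 1.41 to 1.99. Its 2 probe sets are bright and gave 1.42 and 1.99, so several of these choices could hardly have moved it. Agpat1 turned from -1.62 to 0.48 when its probe sets, which disagree in sign, were averaged. The count of lower genes, 1, became 2 at a limit of 0.25 and 0 with the mean of all probe sets. The count of higher genes, 2, became 3 at a limit of 0.25 and when centred on the spike-ins (Lpin2 at 0.66), and 1 at a limit of 1.0, with signals floored at the array median and with a pseudocount of 3 added. The set's median of 0.19 became 0.45 when centred on the spike-ins, 0.05 with floored signals and -0.03 when each gene took its probe set nearest 0. The 0.05 is the log2 ratio of the array medians, which any gene below both takes after flooring. Dgat1 and Agpat3 had no probe set with the plain suffix. No paired analysis was possible because each group is 1 pool on 1 array, and no array could be left out. Signals below the array median gave no usable ratio for Lpin3 and Mogat1.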
